A study of Mus musculus with 22 samples.

Results

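Divergent promoter pairs are neighbouring genes that are read away from each other from starts that lie close together, one on each strand. A pair was counted where both genes were labelled protein_coding, they lay on opposite strands, and a deposited transcript start of the minus-strand gene lay below one of the plus-strand gene by 1 kb or less. This gave 1192 pairs with 2345 genes, 10.7% of the 21925 protein-coding genes that had a window in the H3K4me3 table. The distance between the starts ran from 1 to 998 bases with a median of 108 (quartiles 58 and 217), and 565 pairs lay within 100 bases. Of the genes, 38 belonged to more than 1 pair, with at most 3 pairs for 1 gene. Any deposited start could make a pair, and 762 of the pairs were also found from the most upstream start of each gene. In the other pairs, the RNA counted for a gene need not come from the paired start. In what follows a pair is written minus-strand gene first.

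Fetal livers of mice at E14.5 were the source of the cells. KO animals carried Mettl3fl/fl with Vav-Cre, a Cre recombinase driven by the Vav promoter in blood cells, and WT animals carried Mettl3fl/fl without Vav-Cre, so both groups were floxed. LSK cells (Lin-Sca-1+c-Kit+, the sorted fraction with blood stem cells and multipotent progenitors) gave H3K4me3 CUT&RUN of 2 KO and 2 WT samples, bulk RNA-seq of 3 and 3, and single-cell RNA-seq of 2 and 2. Whole fetal liver RNA (2 and 2) was used as a further check, in which blood cells are mixed with cells that keep Mettl3. Mettl3 writes N6-methyladenosine, a base modification that marks many messenger RNAs for faster turnover.

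At a divergent promoter, the stretch between the starts serves both genes: polymerases load in each direction, often from a CpG-rich sequence without a TATA box. H3K4me3 is a histone mark laid down on the nucleosomes around active starts, and CUT&RUN reads it by cutting the DNA next to a bound antibody. Many divergent partners are housekeeping genes for mitochondria, ribosome assembly or DNA repair. Because the steady level of a messenger RNA depends on its decay as well as on its promoter, partners with a common promoter can still differ in RNA.

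Mettl3, which is not a member, was measured at 4.13, 6.31 and 5.53 CPM in KO 1 to 3 and 43, 43 and 33.2 CPM in WT 1 to 3 in bulk RNA, and the groups did not overlap. In the single-cell sums it stood at 64.3 and 52.2 CPM in the libraries labelled KO and 36.3 and 33.3 CPM in those labelled WT, higher under the KO label; which part of the gene is deleted and which end of a transcript was read are not given in the sources used here, so that value checks no label. In whole liver Mettl3 was at 5.93 and 24 CPM in KO 1 and 2 and 26.4 and 21.8 CPM in WT 1 and 2, where KO 2 lay between the WT libraries. Bulk libraries held 20.1 to 40.6 M counts, the distinct H3K4me3 windows 33.2 to 42.6 M, and the whole liver libraries 3.10 to 4.12 M. Summed levels of 9 granulocyte and macrophage markers lay at 3845 to 3915 CPM in KO and 1657 to 1782 CPM in WT of the bulk libraries, and those of 8 LSK markers at 1921 to 2140 and 2234 to 2569 CPM; none of these markers was at 0. Of the 9 granulocyte and macrophage markers 4 were called higher and 1 lower, and of the 8 LSK markers 1 and 4. Of 10 endothelial and stromal markers 9 were tested and 6 called lower (99.1 to 103.6 CPM summed in KO, 118 to 127 CPM in WT). Hepatocyte markers lay at 13.1 to 53.9 and 19.1 to 162 CPM. Of 9 erythroid markers 0 were called higher and 3 lower (343 to 440 CPM summed in KO, 280 to 591 CPM in WT). In bulk samples, fewer cells of a type and less RNA per cell cannot be told apart. Xist was found in both single-cell KO libraries and in no single-cell WT library, so in those libraries sex cannot be told apart from genotype. In bulk RNA the Y-chromosome genes Ddx3y, Eif2s3y, Kdm5d and Uty summed to 0, 43.1 and 36.1 CPM in KO 1 to 3. In WT 1 to 3 they summed to 155, 95.1 and 181 CPM, so the sex mixture differed between the bulk groups too. Sex was part of no fit.

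The sequence between the starts is shown for 8 pairs, chosen to cover partners that rose together, fell together or moved apart, a pair whose mark rose, and the pair with the largest RNA rise on the interferon list. They are RefSeq sequences (GRCm38.p6, plus strand, 5′ to 3′), from the base after the minus-strand start to the base before the plus-strand start; RefSeq starts lay within 41 bases of the deposited ones in these pairs. Capitals mark matches, on either strand, to CCGGAAG (the ETS factor motif), CCAAT (the CCAAT box, bound by NF-Y) or a pair of GAAA half-sites with any 2 bases between (the interferon-stimulated response element, ISRE), none of which overlap here. A match is a description of the letters and not a shown site.
Taf5l/Urb2, chr8:124021398-124021496: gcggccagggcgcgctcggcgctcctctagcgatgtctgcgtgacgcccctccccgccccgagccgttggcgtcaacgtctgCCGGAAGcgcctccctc
Rpl36al/Mgat2, chr12:69184068-69184157: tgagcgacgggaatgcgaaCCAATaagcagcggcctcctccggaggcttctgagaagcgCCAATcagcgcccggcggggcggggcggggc
Cetn4/Bbs12, chr3:37312447-37312553: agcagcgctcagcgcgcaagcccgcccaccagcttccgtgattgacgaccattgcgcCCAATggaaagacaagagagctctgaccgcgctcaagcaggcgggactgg
Mrps12/Sars2, chr7:28741822-28741967: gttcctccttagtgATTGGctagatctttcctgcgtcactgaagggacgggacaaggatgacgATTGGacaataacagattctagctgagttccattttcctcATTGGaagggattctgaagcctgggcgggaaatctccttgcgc
Gfer/Noxo1, chr17:24696157-24696233: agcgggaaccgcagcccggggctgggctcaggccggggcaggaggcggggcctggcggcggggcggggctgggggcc
Rad9b/Vps29, chr5:122354206-122354327: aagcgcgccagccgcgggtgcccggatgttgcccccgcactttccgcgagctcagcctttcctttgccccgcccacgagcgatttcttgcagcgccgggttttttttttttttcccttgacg
Nat9/Tmem104, chr11:115187400-115187486: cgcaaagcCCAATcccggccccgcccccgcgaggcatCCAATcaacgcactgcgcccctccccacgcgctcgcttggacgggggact
Ifit1bl2/Ifit1, chr19:34640744-34640888: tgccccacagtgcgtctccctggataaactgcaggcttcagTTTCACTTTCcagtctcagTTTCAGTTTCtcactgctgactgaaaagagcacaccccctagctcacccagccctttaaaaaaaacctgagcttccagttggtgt
Taf5l/Urb2 and Rpl36al/Mgat2 were pairs whose partners both rose in KO, Cetn4/Bbs12 fell together, and Mrps12/Sars2, Gfer/Noxo1 and Rad9b/Vps29 had partners that moved in opposite directions. Among the 8 printed pairs, stretches as short as 77 bases (Gfer/Noxo1) and 122 bases (Rad9b/Vps29) separated starts with opposite RNA changes. The Ifit1bl2/Ifit1 stretch had 49.7% GC and 1 CpG, against 74.7% GC and 15 CpG in the 99 bases of Taf5l/Urb2.

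Across pairs, 677 had RefSeq starts of both partners up to 1 kb apart, and 599 could be read completely between the starts, with a median GC content of 63.2%. RefSeq promoters of 300 bases (250 before and 50 after the start) were matched for 1885 members and 14454 other coding genes. Each promoter was the one nearest to the strongest H3K4me3 window of its gene, which need not be at the paired start. The median GC of these promoters was 62.3% in members and 56.3% in the others, with 23 and 13 CpG. TATAAA occurred in 4.35% of member promoters against 13.7% of the others. The ETS motif CCGGAAG occurred in 27.6% against 10.4%, the NRF1 motif (GCGC, any 2 bases, GCGC) in 17.7% against 8.10%, and the YY1 motif ATGGCGG in 11.8% against 4.92%. CCAAT (40.2% against 38.1%) and the ISRE (3.40% against 3.54%) were about as frequent in both sets, all motifs being searched on both strands. Among genes that carried the mark in LSK cells most of the gap in base composition was gone: 1499 marked members had 62.7% GC and 24 CpG, and 3990 other marked coding genes 63.3% and 24. The ETS (30.2% against 19.1%) and YY1 (13.6% against 9.10%) shares still differed in value there, while NRF1 (19.8% against 15.96%) and TATAAA (4.40% against 5.54%) lay closer than before, and the ISRE stood at 3.67% against 2.46%. These shares were not tested.

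Divergent starts were strongly marked in LSK cells. A window was called marked at a mean log2 CPM of 4 or more over the 4 libraries (16 CPM), CPM being counts relative to the library total after TMM scaling in edgeR. Of the pairs, 915 (76.8%) were marked, against 22.9% of all windows tested. By the strongest window of each gene, 78.6% of members (1844) and 26.4% of 19580 other coding genes (5173) were marked, with median levels of 4.47 and 2.56 log2 CPM. That strongest window was a window of a pair in 1196 of the 2345 members, and in the others it lay at another start. The level of a pair had quartiles of 4.05, 4.46 and 4.76 log2 CPM and ran from -1.79 to 8.29. Windows are 3 kb per the labels, so the windows of both starts of a pair cover nearly the same DNA: their levels differed by a median of 0.17%. Pairs with starts over 500 bases apart were marked in 57.7% of 97, while the closer classes lay between 75.8% (over 100 and up to 200 bases) and 82.3% (up to 50 bases). A level of a pair therefore holds both starts at once, and the table cannot split it between the partners.

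The mark rose slightly at most divergent pairs in KO, by the same median as at all marked windows. The median log2 fold change, KO over WT, was 0.20 at marked pairs and 0.20 over all 27775 marked windows, while it was -0.10 over all windows. By the quasi-likelihood test of edgeR, with p-values adjusted over all windows by the Benjamini-Hochberg method, 79 of 1191 tested pairs were called higher (adjusted p under 0.05) and 5 lower, 7.05% against a background of 10.7% of all windows (5.94% higher, 4.75% lower). Of the 915 marked pairs 48 were called, all higher; this was 5.25%, and 8.97% of all marked windows were called (8.86% higher, 0.112% lower). Marked windows of other coding genes were called in 520 of 5173 cases, 10.1%. In all, 1080 pairs (90.7%) had a log2 fold change above 0, and the change followed the level: windows at 0 to 1 log2 CPM had a median of -0.36 and those at 4 to 5 one of 0.19, and pairs at these levels had -0.28 (24 pairs) and 0.20 (802 pairs). Fitted on marked windows alone, which sets the median of those windows near 0, the split turned: 7 pairs were called higher and 17 lower of 915, 2.62% against a background of 4.85% (2.5% higher, 2.36% lower), with a median of 0.01. The calls also rested on every library, with 14 pairs called without KO 1, 10 without KO 2, 14 without WT 1 and 13 without WT 2.

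**Figure D1:**
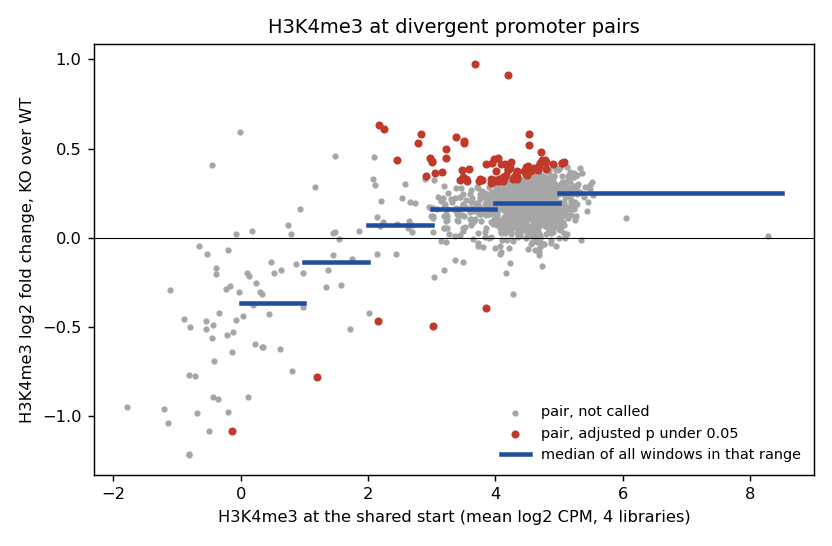
H3K4me3 at 1191 divergent pairs: the mean level over the 4 libraries in log2 CPM (x axis) against the log2 fold change, KO over WT (y axis). Each point is a pair, red where the adjusted p was under 0.05, and blue bars are the median of all windows in each range of level; pairs lie along the blue bars, near 0.20 above a level of 4.

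The pair with the largest rise among marked ones was Igsf6/Mettl9 (chromosome 7, starts at 121074572 and 121075287, GRCm38.p5). Igsf6 encodes an immunoglobulin-superfamily membrane protein of myeloid cells, and Mettl9 a histidine methyltransferase. Its H3K4me3 level was 23.3 and 24.2 CPM in KO 1 and 2 and 12.9 and 12.4 CPM in WT 1 and 2. Both KO libraries lay above both WT libraries, and the log2 fold change was 0.91 (SE 0.12, adjusted p 3.2e-12 by edgeR). It was called as well on marked windows alone (0.72, adjusted p 0.0025) and with any library left out. In bulk RNA Igsf6 stood at 62.7, 73.8 and 71.3 CPM in KO 1 to 3 and 22.8, 17.4 and 12.1 CPM in WT 1 to 3, which is 1.98 higher in log2 units (SE 0.19, edgeR adjusted p 8.2e-05), and Mettl9 at 88.2, 91.1 and 94.3 CPM in KO 1 to 3 and 88.8, 98.7 and 106 CPM in WT 1 to 3, where the groups overlapped (log2 fold change -0.10, adjusted p 0.32). The RNA counted for the partners thus differed where the mark of the paired starts rose. This pair was not found from the most upstream starts of both genes, and their RefSeq spans overlap. The RNA counted for each gene need not come from the paired starts, and the partners could share reads, which was not tested. The part of the granulocyte and macrophage markers, whose summed level was higher in KO, was not tested either.

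Slc25a29/Slc25a47, a pair of mitochondrial carrier genes, had 27.3 and 28 CPM in KO 1 and 2 and 19.1 and 17.8 CPM in WT 1 and 2, a log2 fold change of 0.58 (adjusted p 0.00034 by edgeR). Its call was lost in 3 of the 4 fits that left out a library, without KO 1, KO 2 or WT 2 (adjusted p up to 0.15), and held without WT 1. Slc25a29 RNA rose by 0.74, from 1.99 to 2.82 CPM over the WT libraries to 3.65 to 4.07 CPM over the KO ones, and Slc25a47 fell by 0.54 (adjusted p 0.043), a call lost without any of the 6 libraries and with the replicate number as a block (0.055). The next pairs were Nat9/Tmem104 (mark 0.52), Fhod1/Slc9a5 (0.48), Spaca9/Ak8 (0.45), Tmem198b/Dnajc14 (0.44), Nfkbil1/Atp6v1g2 (0.43) and Fbxl12/Ubl5 (0.43). At each of these the mark call was lost when any 1 of the 4 libraries was left out (highest adjusted p 0.18, 0.45, 0.11, 0.55, 0.40 and 0.69). None of their members was called higher in RNA: Tmem198b (-0.64), Atp6v1g2 (-0.70) and Fbxl12 (-0.43) were called lower, and Fhod1 (-0.25) was with the replicate block alone (adjusted p 0.0498, 0.071 without). The calls of Atp6v1g2 and Fbxl12 were lost in 5 of 6 fits that left out a library, all but WT 1 and all but WT 3 (adjusted p up to 0.20 and 0.14).

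The 5 pairs called lower, named after their values were seen, lay under the marked level. Tmem176b/Tmem176a, membrane proteins of antigen-presenting cells, had 7.77 and 5.71 CPM in KO 1 and 2 and 11.2 and 7.67 CPM in WT 1 and 2, where KO 1 lay just above WT 2 (log2 fold change -0.49, adjusted p 0.0013 by edgeR). Their RNA fell as well, Tmem176b by 0.62 and Tmem176a by 0.43 on the log2 scale, the latter call lost without KO 1, KO 3, WT 2 or WT 3 (adjusted p up to 0.13). At Abi3/Gngt2 the mark fell by 0.39 and the RNA by 0.47 (lost without KO 3, adjusted p 0.059) and 0.60 (lost in 5 of 6 fits that left out a library, all but KO 2, up to 0.17). The RefSeq spans overlap at Tmem176b/Tmem176a and at Abi3/Gngt2, so these partners could share reads. Obsl1/Inha (-0.46), Slc25a53/Zcchc18 (-0.78) and Ubxn10/Pla2g2c (-1.08) were the other pairs called lower. Each of the 5 calls was lost without at least 2 of the 4 libraries; Tmem176b/Tmem176a lost it without KO 2 or WT 1 (adjusted p up to 0.41). On marked windows alone the lowest pairs were Hebp1/Fam234b (-0.51, adjusted p 0.0085) and Oxsm/Ngly1 (-0.39, adjusted p 0.010), neither of them called in the fit over all windows. Hebp1, a heme-binding protein gene, and Fam234b both fell in RNA (-0.40, lost without KO 3 or WT 2 with adjusted p up to 0.058, and -0.66), whereas Oxsm, for mitochondrial fatty acid synthesis, rose by 0.72 and its partner Ngly1, for removing sugar chains from misfolded proteins, fell by 0.76.

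In bulk RNA, members rose more often than they fell. Of the 2345 genes 2034 (86.7%) passed the filter on low counts, against 54.2% of other coding genes, and 913 of these were called: 572 higher (28.1%) and 341 lower (16.8%). Called genes made up 44.9% of members, 44.2% of all genes tested (21.6% higher, 22.6% lower) and 47.3% of the 10615 other coding genes (23.0% higher, 24.3% lower). The median log2 fold change was 0.06 for members and -0.02 for other coding genes. Under library size alone, where the median over all genes was -0.11 in place of -0.02, members were called higher in 427 cases (21.0%) and lower in 485 (23.8%), and other coding genes in 18.5% and 30.8%. With the replicate number as a block, 648 were called higher and 369 lower.

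Genes for building ribosomes made up part of the rise. Of 28 tested members on the list of mitochondrial chaperones and mitochondrial ribosomal proteins 24 were called higher and 0 lower, with a median log2 fold change of 0.62; over the whole list it was 61 of 81 and 0, with a median of 0.44. Mrpl43 (1.48), Mrps34 (1.45) and Mrpl46 (1.40), proteins of the mitochondrial ribosome, led. Of 30 members for ribosome biogenesis 23 were higher and 0 lower (median 0.38; whole list 69 of 86 and 0, median 0.42), among them Bysl (0.99), for the small ribosomal subunit, and Wdr3 (0.79). Without these lists, 525 of 1976 members (26.6%) were higher and 341 (17.3%) lower. Members for nucleotide synthesis were higher in 4 of 5 (Tk1 by 0.71, Mthfd2 and Ppat by 0.49 and Gart by 0.34), and in the whole list 16 were higher and 4 lower of 33 (median 0.16). Of 54 members for DNA replication and repair 11 were higher and 9 lower (whole list 23 and 22 of 134, median 0.00): the translesion polymerase gene Polh (0.80) and the flap endonuclease gene Fen1 (0.78) rose, and the recombination gene Rad51c (-0.75), the mismatch repair gene Pms2 (-0.59) and the scaffold gene Xrcc1 (-0.51) fell. The proteasome list had 3 of 10 members higher and 0 lower (whole list 15 and 0 of 43), aminoacyl-tRNA synthesis 4 and 1 of 10 (10 and 4 of 37), and the cell cycle 2 and 3 of 11 (9 and 20 of 72). Neither of the m6A genes in pairs, the demethylase gene Fto (-0.22, adjusted p 0.062, and 0.0494 with the replicate block) and Hnrnpa2b1 (0.15, adjusted p 0.11), was called without that block.

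Partners of these genes were called in both directions or not called. Of all tested members, 28.1% were higher and 16.8% lower. Where 1 partner was on the mitochondrial list and both were tested (23 pairs), the listed gene was higher in 20, and in those its partner was higher in 6, lower in 6 and not called in 8. For ribosome biogenesis the listed gene was higher in 23 of 29 pairs, with the partner higher in 8, lower in 3 and not called in 12. Mrpl43 rose by 1.48 while its partner Twnk, the mitochondrial DNA helicase gene, had 0.04 (adjusted p 0.71), and Bysl rose by 0.99 while Med20 of the Mediator complex had -0.04 (adjusted p 0.73). Mrpl51, of the mitochondrial ribosome, rose by 0.68 and Ncapd2 of condensin fell by 0.44. At Mrpl18/Tcp1 both rose (0.37 and 0.28), as at Ptcd2/Mrps27 (0.64 and 0.23) and Rita1/Ddx54 (0.86 and 0.27).

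Among 20 shared promoters known from textbooks and the literature, 16 were found by the rule. Both partners rose at Hspd1/Hspe1, which encode the mitochondrial chaperonin HSP60 and its lid HSP10. The RefSeq spans of these partners overlap, as do those of Col4a1/Col4a2 below. The strand setting of the counting is not given, so such partners could share reads, which was not tested. Hspd1 was at 1714, 1766 and 1718 CPM in KO 1 to 3 and 984, 919 and 994 CPM in WT 1 to 3, and Hspe1 at 152, 214 and 211 CPM in KO 1 to 3 and 106, 109 and 136 CPM in WT 1 to 3. All KO libraries exceeded all WT libraries for both genes, by 0.84 (SE 0.07, adjusted p 4.4e-05) and 0.72 (SE 0.14, adjusted p 0.0033 by edgeR) on the log2 scale, while the mark was 41.6 and 37.7 CPM in KO 1 and 2 and 38.2 and 32.7 CPM in WT 1 and 2 (0.16, adjusted p 0.44). Both partners fell at Col4a1/Col4a2, the paired basement-membrane collagen genes: Col4a1 was at 18, 30.4 and 26.4 CPM in KO 1 to 3 and 31.6, 49.1 and 51 CPM in WT 1 to 3, and KO 2 came close to WT 1. The changes were -0.82 for Col4a1 (edgeR adjusted p 0.014, lost without KO 1 or WT 2, up to 0.066) and -0.92 for Col4a2 (edgeR adjusted p 0.0090). Of 9 tested endothelial and stromal markers 6 were called lower in KO too, and the part of those cells was not tested.

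At Mrps12/Sars2, a mitochondrial ribosomal protein gene and the mitochondrial seryl-tRNA synthetase gene, the partners parted. Mrps12 was at 47.2, 56.9 and 54.5 CPM in KO 1 to 3 and 24, 26.8 and 31.4 CPM in WT 1 to 3, a rise of 0.95 (SE 0.11, adjusted p 0.00026). Sars2 was at 21.9, 19.3 and 19.5 CPM in KO 1 to 3 and 25.2, 27.4 and 26.9 CPM in WT 1 to 3, which is -0.39 in log2 units (SE 0.09, adjusted p 0.0080), a call lost without KO 2 or KO 3 (up to 0.063). Neither gene's groups overlapped, and the log2 ratio of the partners moved by -1.34 (adjusted p 0.00029 by limma). Wrap53/Trp53, the Cajal body gene Wrap53 and the tumour suppressor p53, also parted: Wrap53 was at 29.9, 34.2 and 32.5 CPM in KO 1 to 3 and 22.4, 23.6 and 28.2 CPM in WT 1 to 3 (0.38, adjusted p 0.017), and Trp53 at 213, 209 and 212 CPM in KO 1 to 3 and 239, 274 and 298 CPM in WT 1 to 3 (-0.36, adjusted p 0.0080), with a mark change of 0.31 (adjusted p 0.19).

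At 8 further known pairs 1 partner was called, and 7 of these are described. Toe1, for trimming small RNAs, rose by 1.09 beside the repair glycosylase gene Mutyh (-0.17, adjusted p 0.38), and Tap1, the peptide transporter of antigen presentation, by 0.52 beside the immunoproteasome gene Psmb9 (0.12, adjusted p 0.37). Ppat and Gart, for purine synthesis, rose by 0.49 and 0.34 beside Paics (-0.12) and Son (0.03), which were not called. Nbr1, an autophagy receptor gene, fell by 0.44 beside Brca1 (-0.04, adjusted p 0.74). Npat, the histone gene activator, rose by 0.21 (lost without KO 3, adjusted p 0.076) beside Atm (0.07), and the checkpoint kinase gene Chek2 fell by 0.21 beside Hscb (-0.13), a call lost without any of the 6 libraries (up to 0.20). Mcm4/Prkdc (-0.17 and -0.30), Surf1/Surf2 (-0.01 and -0.12), Sirt3/Psmd13 (-0.16 and 0.22) and Ranbp1/Trmt2a (0.19 and 0.20) had no partner called. With the replicate number as a block Prkdc (edgeR adjusted p 0.0095), Psmd13 (0.027), Ranbp1 (0.043) and Trmt2a (0.031) were called.

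Over all pairs, partners that were both called moved the same way in 62.8% of cases and apart in the rest. Of 939 pairs with both partners tested, neither was called in 293, a single partner in 455 and both in 191. In the 191 pairs both were higher in 93, both lower in 27 and opposite in 71, so that 120 (62.8%) moved the same way. A figure of 54.1% comes from the squared shares of higher and lower calls, added up. Those shares cover all called partners of the 939 pairs, also where a single partner was called, and not the 191 pairs alone. Pairs share libraries and some share a gene, so the 62.8% is a description without an interval or test. Both partners were called in 20.3% of pairs, against 19.8% from the product of the called shares of minus-strand and plus-strand partners. The signs of the fold changes agreed in 54.7% of the 939 pairs, against 50.8% from their shares, and across pairs the log2 fold changes had Pearson's r = 0.09 and Spearman's rho = 0.10, given as a description since genes are not replicates and partners share libraries. Scaled by library size alone the 192 pairs with both called were 54 higher, 57 lower and 81 opposite (57.8% the same way). With a library left out the share lay between 62.6% and 75%, the highest without KO 3 (104 pairs) and KO 2 (70.8% of 120 pairs).

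**Figure D2:**
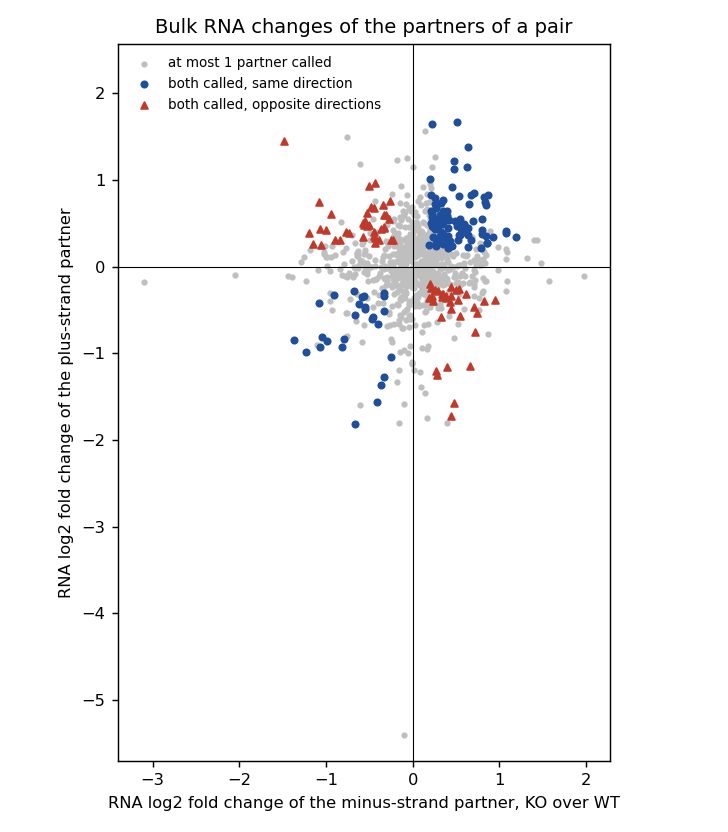
Bulk RNA log2 fold change, KO over WT, of the minus-strand partner (x axis) and the plus-strand partner (y axis) in 939 divergent pairs. Blue points are the 120 pairs with both partners called in the same direction, red triangles the 71 called in opposite directions and grey points all others; the grey point at the bottom is Blcap/Nnat (Nnat -5.40).

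By the distance between the starts, 68.4% of 38 pairs with both partners called moved the same way at up to 50 bases and 61.0% of 59 at over 50 and up to 100. It was 62.7% of 51 pairs up to 200, 64.5% of 31 up to 500 and 50.0% of 12 up to 1000 bases. Among marked pairs the share was 62.7% of 166. The strand setting of the read counting is not given in the sources used here, so partners whose transcribed spans overlap could share reads. The same direction was seen in 66.1% of 62 pairs with overlapping RefSeq spans (52.1% from their shares) and 59.8% of 122 pairs without (55.4%), so the share stood farther above the margins where spans overlap; the part of shared reads was not tested. Other neighbours gave 58.4% of 89 for divergent coding genes with starts over 1 and up to 10 kb apart (50.4% from their shares), 63.7% of 251 for neighbours on 1 strand within 10 kb (50.0%), and 73.3% of 15 for opposite-strand genes with overlapping starts. The differences between these classes were not tested.

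**Figure D3:**
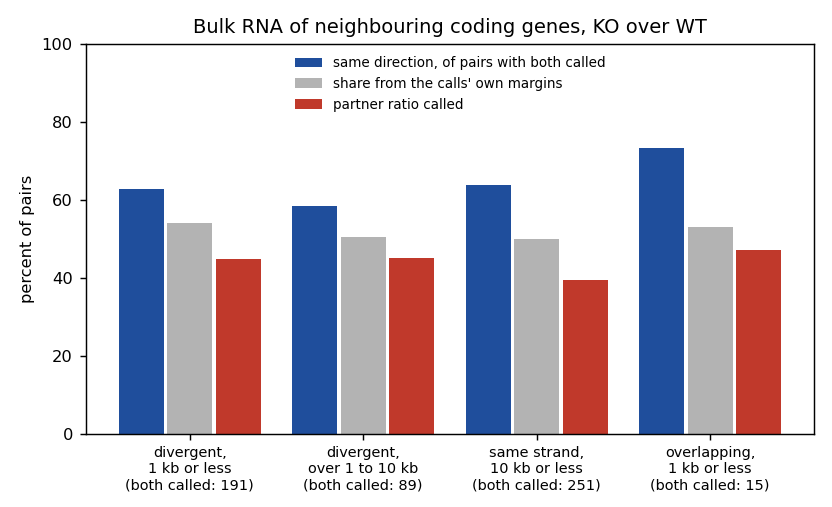
For 4 classes of neighbouring coding genes, blue bars show the percentage of pairs with both partners called that moved the same way. Grey bars show the percentage given by the shares of higher and lower calls over all called partners. Red bars show the percentage of tested pairs whose partner ratio was called. Divergent pairs within 1 kb (62.8%, 54.1% and 44.8%) stand beside the other classes.

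The ratio of the partners within each library was tested as a direct measure of disagreement. The log2 ratio of the plus-strand to the minus-strand partner differed between KO and WT in 421 of 939 pairs (44.8%, 203 higher and 218 lower) by limma with adjustment over 2779 neighbouring coding pairs, of which 42.5% were called (21.2% higher, 21.3% lower). The median size of the ratio change was 0.37 on the log2 scale. The ratio was called in all 71 opposite pairs, which their choice by opposite calls in these libraries nearly fixes, in 36 of the 120 that moved the same way, in 284 of the 455 with 1 partner called and in 30 of the 293 with none. It was called in 45.2% of divergent pairs over 1 and up to 10 kb apart and in 39.3% of same-strand neighbours. Blcap/Nnat, chosen after its values were seen, had the lowest RNA change of a partner: Nnat stood at 0.0504, 0.112 and 0.0624 CPM in KO and 8.01, 1.02 and 0.396 CPM in WT, so the WT libraries ranged over more than 10 times, and Blcap had -0.10.

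Pairs whose partners both rose were led, by the smaller of both changes, by Dph3/Oxnad1 (0.87 and 0.82), Tradd/Fbxl8 (0.82 and 0.81), Dram1/Gnptab (0.84 and 0.75), Hspd1/Hspe1, Tyw5/Maip1 (0.71 and 0.85), Rpl36al/Mgat2 (0.67 and 0.83), Taf5l/Urb2 (0.65 and 0.73) and Fpgt/Lrriq3 (0.64 and 1.38). Of these, Hspd1/Hspe1 and Tyw5/Maip1 have overlapping RefSeq spans, so their partners could share reads, and the other pairs do not overlap. Dph3 serves diphthamide synthesis on a translation factor, and Tradd is an adaptor of tumour necrosis factor receptors. Dph3 was at 60.1, 82.4 and 78.9 CPM in KO 1 to 3 and 36.6, 41.8 and 42.9 CPM in WT 1 to 3, and Oxnad1 at 61.2, 61.5 and 58.7 CPM in KO 1 to 3 and 33.7, 32.9 and 36 CPM in WT 1 to 3, with no overlap of the groups in either gene. Taf5l, of histone acetyltransferase complexes, was at 137, 130.1 and 129.6 CPM in KO 1 to 3 and 80.4, 82.5 and 90.1 CPM in WT 1 to 3, and Urb2, for ribosome assembly, at 221, 202 and 207 CPM in KO 1 to 3 and 123, 127 and 130.4 CPM in WT 1 to 3. All 3 KO libraries exceeded all WT libraries for both, and the ratio of these partners moved by 0.08 (adjusted p 0.41 by limma). The calls of Dram1 (2 of 6 fits, without KO 1 or KO 3, adjusted p up to 0.062) and Lrriq3 (3 of 6, without KO 2, KO 3 or WT 1, up to 0.076) were lost with a library left out.

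Pairs whose partners both fell were led by Sgsh/Slc26a11 (-1.23 and -0.98), Lrtm2/Cacna2d4 (-1.07 and -0.93), Tcf19/Cchcr1 (-0.99 and -0.86), Slc25a27/Cyp39a1 (-1.36 and -0.85), Col4a1/Col4a2, Cetn4/Bbs12 (-1.05 and -0.81), Sgce/Peg10 (-0.79 and -0.83) and Slc25a53/Zcchc18 (-0.66 and -1.82). RefSeq spans overlap at Sgsh/Slc26a11, Lrtm2/Cacna2d4, Col4a1/Col4a2 and Slc25a53/Zcchc18, so these partners could share reads, and do not overlap at the others. Sgsh, a lysosomal sulfatase gene, was at 6.55, 5.41 and 6.3 CPM in KO 1 to 3 and 12.4, 15.7 and 15 CPM in WT 1 to 3. Slc26a11, an anion transporter gene, was at 2.29, 1.98 and 2.09 CPM in KO 1 to 3 and 4.46, 5.04 and 3.02 CPM in WT 1 to 3. Neither gene's groups overlapped. Tcf19, a cell cycle linked transcription regulator, was at 13.3, 10.8 and 11.8 CPM in KO 1 to 3 and 24, 23.8 and 23.8 CPM in WT 1 to 3. Slc25a53/Zcchc18 lies on the X chromosome, and Xist ran from 0.148 CPM in WT 3 to 400.2 CPM in WT 1 of the bulk libraries, which hold different mixtures of the sexes. Sgce/Peg10 is an imprinted pair, read from the paternal copy, and Bbs12 helps assemble the cilium's BBSome. Several of these calls were lost with a library left out: Cetn4 and Lrtm2 lost theirs in 5 of 6 fits with a library left out (adjusted p up to 0.17 in both), all but WT 2 for Cetn4 and all but WT 1 for Lrtm2, Cacna2d4 (without KO 1, KO 2, KO 3 or WT 2, up to 0.10) and Sgce (without KO 1, KO 3, WT 2 or WT 3, up to 0.10) in 4, and Slc25a27 (without KO 1 or KO 2, up to 0.052) in 2.

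The widest opposite pair was Eme2/Mrps34 (chromosome 17, starts at 24895087 and 24895116, 29 bases apart). Eme2, a subunit of a structure-specific nuclease, was at 3.45, 2.91 and 3.06 CPM in KO 1 to 3 and 9.27, 8.14 and 9.01 CPM in WT 1 to 3. Mrps34, a protein of the small mitochondrial ribosomal subunit, was at 89.1, 106 and 101 CPM in KO 1 to 3 and 30.1, 36.9 and 41.1 CPM in WT 1 to 3. The groups overlapped in neither gene, and the changes were -1.48 (SE 0.14, adjusted p 7.5e-05) and 1.45 (SE 0.12, adjusted p 4.4e-05 by edgeR). Their log2 ratio moved by 2.93 (adjusted p 4.5e-05 by limma), whereas the mark over both starts was 35 and 30.3 CPM in KO 1 and 2 and 30.1 and 25.5 CPM in WT 1 and 2 (0.23, adjusted p 0.24). The RefSeq spans of these genes do not overlap.

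Litaf/Snn followed, with starts 141 bases apart. Litaf, a lysosomal membrane protein gene, was at 62.1, 66.3 and 68.5 CPM in KO 1 to 3 and 42.8, 50.3 and 51.5 CPM in WT 1 to 3, and Snn (stannin) at 11.2, 11.9 and 12.1 CPM in KO 1 to 3 and 29.8, 41.8 and 44.6 CPM in WT 1 to 3. All KO libraries lay above the WT ones for Litaf (0.45) and below them for Snn (-1.72), and the mark change was -0.13 (adjusted p 0.39). The other leading opposite pairs were Coa3/Cntd1 (0.48 and -1.57), Mmp11/Chchd10 (-1.08 and 0.74), Hras/Lrrc56 (0.67 and -1.15), Rad9b/Vps29 (-1.20 and 0.39), Gfer/Noxo1 (0.40 and -1.15) and Klhdc8b/Ccdc71 (-0.94 and 0.61). Coa3 serves cytochrome oxidase assembly, Chchd10 and Gfer are proteins of the mitochondrial intermembrane space, Hras is a growth-signalling GTPase and Vps29 belongs to the retromer. In 7 of these 8 pairs, all but Litaf/Snn, the falling partner had a mean under 10 CPM in each group; all 8 had the ratio called. Calls were lost for Coa3 (without KO 2, KO 3 or WT 2, adjusted p up to 0.059), Noxo1 (without KO 1 or KO 3, up to 0.083), Mmp11 (without WT 2, 0.056), Klhdc8b (without KO 3, 0.062) and Vps29 (without KO 3). The stretches between Gfer and Noxo1 and between Rad9b and Vps29, printed above, held no match to any motif named here.

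**Figure D4:**
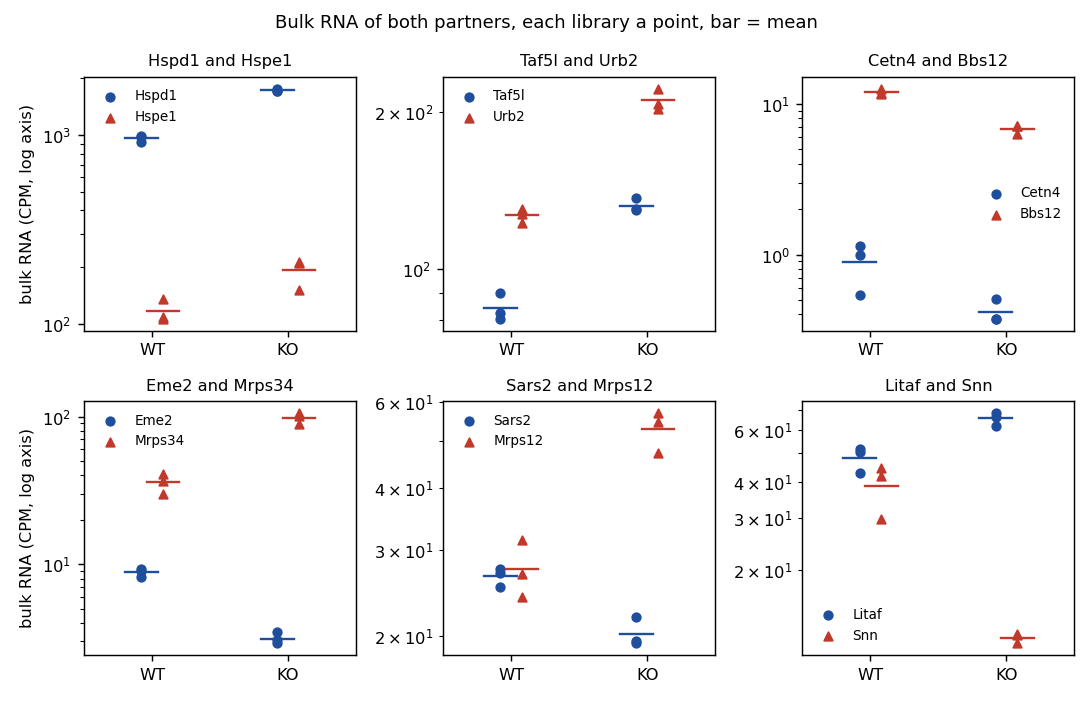
Bulk RNA of both partners of 6 divergent pairs in CPM (log axis), with each of the 3 WT and 3 KO libraries a point and bars at the means. Hspd1/Hspe1, Taf5l/Urb2 and Cetn4/Bbs12 move the same way, and Eme2/Mrps34, Mrps12/Sars2 and Litaf/Snn part.

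Sorted by the RNA of their partners, marked pairs had median mark changes from 0.11 to 0.24. The median H3K4me3 log2 fold change was 0.24 where both partners were higher (87 pairs), 0.11 where both were lower (17), 0.19 where they were opposite (62), 0.20 and 0.19 where a single partner was higher (254) or lower (153), and 0.20 where neither was called (253). The quartiles were 0.17 and 0.29 in the first class and 0.03 and 0.21 in the second, so the classes overlapped. Fitted on marked windows alone, these medians were 0.04, -0.09 and -0.0044 for both higher, both lower and opposite, 0.01 and -0.01 for a single partner higher or lower, and 0.00 for neither, so the sign turned where both were lower, where a single partner was lower and in opposite pairs. Across 826 marked pairs with both partners tested, Pearson's r between the mark change and the mean RNA change of the partners was 0.20 and Spearman's rho 0.18, as a description. Of the 87 pairs with both partners higher 7 had the mark called higher, and of the 62 opposite pairs 4. These stand beside 48 of 915 marked pairs (5.25%) and 8.86% of all marked windows, and the differences were not tested. On marked windows alone 0 of the 87 were called higher and 1 lower, and of the 62 opposite pairs 1 and 1.

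Of the interferon and antiviral list, 5 genes were members and 4 of them were higher, beside 21.6% of all genes; in the whole list 55 of 63 were higher and 0 lower (median 0.93), so the count shows nothing particular to pairs. Ifit1, which binds viral RNA, was at 24.9, 46.6 and 38.5 CPM in KO 1 to 3 and 3.52, 2.34 and 2.67 CPM in WT 1 to 3, a rise of 3.68 (SE 0.25, adjusted p 2.8e-05 by edgeR) with no overlap of the groups. Its divergent partner Ifit1bl2, a related gene, was at 0.0495 to 0.374 CPM over the 6 libraries and too low to test. The mark over both starts was 5.16 and 4.65 CPM in KO 1 and 2 and 3.49 and 3.67 CPM in WT 1 and 2, under the marked level (0.46, adjusted p 0.054), and the sequence between the starts, shown above, held 2 matches to the ISRE. Tor1aip1 and Tor1aip2, nuclear envelope and ER partners of torsin ATPases, rose by 0.35 (edgeR adjusted p 0.0017) and 0.26 (edgeR adjusted p 0.0088). Their RefSeq spans overlap, so they could share reads. Tap1 and Psmb9 are given above.

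Single-cell and whole liver libraries gave few calls but let the directions be read in other samples. Y-chromosome genes were lower in KO in both bulk and single-cell libraries, and the part of sex in shared directions was not tested. In sums over 15678 cells, libraries labelled KO over those labelled WT, 0 of 1909 members were called by edgeR, with 284 at an unadjusted p under 0.05 and 55 called by DESeq2; over all genes 0.00748% were called. Of members higher in bulk and tested there, 523 of 566 (92.4%) were above 0, with a median of 0.32, and of those lower in bulk 256 of 303 (84.5%) were below 0, with a median of -0.33. The partner ratio moved as in bulk in 344 of 380 pairs with a called ratio (90.5%), and in 61 of 66 opposite pairs. In whole liver 1 of 1829 members was called (0.207% of all genes, 0.149% higher and 0.0581% lower; 172 at an unadjusted p under 0.05; 33 by DESeq2, and 83 by edgeR without WT 1 and 69 without WT 2), and 356 of 553 (64.4%) and 180 of 282 (63.8%) shared the direction of the LSK cells. The ratio moved as in LSK bulk in 219 of 344 pairs (63.7%). Signs of partners agreed in 52.7% of 840 pairs in the single-cell sums (50.6% from their shares) and in 52.0% of 768 pairs in whole liver (50.0%). The shares with the same direction as in bulk were not computed over all genes, so they show nothing particular to members.

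At the distance limit, the 3 pairs just inside were 5330417C22Rik/1700013F07Rik (998 bases), Btf3l4/Txndc12 (987) and Asphd1/Sez6l2 (981), with marks of 2.08, 5.09 and 2.46 log2 CPM. Just outside were Nacc1/Trmt1 (1004 bases), Serpina7/4930513O06Rik (1007) and Sgsm2/Tsr1 (1011), with 5.01, -1.96 and 4.93 log2 CPM. The RNA of Btf3l4 and Txndc12 had log2 fold changes of 0.12 and 0.25, neither called (Txndc12 was with the replicate block, edgeR adjusted p 0.037), and that of Sgsm2 and Tsr1 had -0.20 and 0.42.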

How the data were processed

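Per the labels' protocols, the bulk and whole liver tables hold raw counts of reads per gene, the H3K4me3 table raw counts in a 3 kb window at each transcript start, and the single-cell table counts per gene and cell, all deposited by the authors as counts; whether 3 kb is the whole window or each side is not stated. The submitters' processing notes name Seurat 3.0, edgeR, bedtools, Bowtie2 2.2.9, STAR 2.5.3a, Picard 2.9.0 and the build GRCm38.p5, without roles. Strand, duplicates and annotation release are not given in the sources used here.

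Of 130983 deposited windows 122996 were distinct and 121382 tested. A pair took the stronger of its windows. Each whole table was filtered with filterByExpr, scaled by TMM and tested with edgeR 4.0.16 (R 4.3.3, quasi-likelihood, KO over WT, Benjamini-Hochberg, adjusted p under 0.05). The partner ratio used log2 CPM with a prior count of 2 and limma 3.58.1 with trend. Single-cell counts were summed per sample over 15678 of 15707 cells (at least 500 counts, under 20% mitochondrial); 8 barcodes occurred in more than 1 library, and doublets were not removed. The pull-down libraries of the series were not used here. The steps were tested on simulated data.

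The labels call the libraries biological replicates. Same-numbered bulk libraries deviated together (correlations of 0.34, 0.12 and 0.12), but KO 2 also did with WT 3 (0.28). The labels do not say what a number marks. All main bulk fits were unpaired, and the replicate block was an alternative. The H3K4me3 libraries have only 2 numbers and were left unpaired as well. Alternatives were DESeq2 1.42.0, RLE or library size scaling, no filter, the replicate block, other starts and leaving out each library; those on RefSeq spans that do not overlap, and other starts for RNA, were chosen after seeing the data.

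Named were 20 known shared promoters (1 pair is not reported here), the 8 marked pairs with the largest mark rises and falls among those called, the 8 pairs with the largest smaller rise, smaller fall or opposite difference, interferon members and 3 pairs on each side of the distance limit. Members, lists and tests were chosen with earlier results of these data known.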

Additional observations from a re-analysis of the deposited data

Results flagged for a closer look

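For 11 of the members whose values are given in the text every KO library lay on the opposite side of every WT library in LSK bulk RNA and in whole liver RNA. Whole liver holds 2 libraries a group, and the difference between the tissues was not tested. The share of all genes with such a pattern was not computed, so the count is no result about members. Lower in LSK cells and higher in liver were Col4a2 (liver log2 fold change 0.53), Gngt2 (2.79), Mmp11 (1.12), Obsl1 (1.03), Peg10 (0.46) and Tmem176b (0.78). Higher in LSK cells and lower in liver were Gart (-0.26), Oxsm (-0.83), Ppat (-0.44), Tyw5 (-3.67) and Wrap53 (-0.85). None of these liver values was called by edgeR.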

How the results depend on the processing

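The H3K4me3 count depended most on the processing. Against 84 pairs called, DESeq2 called 14, RLE scaling 37, library size alone 43, the fit on marked windows alone 24, the strongest window of each gene 25, the 5-prime-most starts 43 (762 pairs) and pairs whose spans do not overlap 37 (689 pairs), and 10 to 14 with a library left out. The replicate block called 853, 821 of them higher; same-numbered H3K4me3 libraries deviated together (r = 0.51), but a pairing of 2 numbers is a hint from the data and not the design. For bulk RNA, the 5-prime-most starts gave 598 called members and spans that do not overlap 578, in place of 913, both over fewer genes, and the replicate block changed no count of calls by over 1.5 times. Single-cell sums had 55 called with DESeq2 and 14 with the block, in place of 0, and whole liver 33 with DESeq2 and 1 to 83 with a library left out, in place of 1. Agreement of partners ranged from 62.6% to 75% with a library left out.

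Of 112 named results that were called, 0 reversed in 1156 comparisons with an alternative, and 39 lost their call at least once. The alternatives refit the same libraries, and many results were named for their calls or values in them. The absence of reversals is therefore no separate test. Signs reversed only among 37 that were not called. On marked windows alone the mark was -0.035 at Hspd1/Hspe1 and -0.0023 at Toe1/Mutyh. With library size alone the RNA of Atm (-0.019), Son (-0.063) and Ubl5 (-0.080) changed sign, and without a filter that of Surf1 (0.0031). With a library left out the RNA ranged from -0.059 to 0.039 for Brca1, -0.21 to 0.041 for Hscb, -0.0098 to 0.26 for Nat9, -0.17 to 0.14 for Nfkbil1, -0.073 to 0.089 for Surf1, -0.058 to 0.076 for Tmem104 and -0.071 to 0.14 for Ubl5. The causes were not tested.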
